A study of Mus musculus with 2 samples.

Results

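Aerocytes, or aCap cells, are the large, thin capillary endothelial cells of the lung that lie against alveolar type 1 cells at the gas exchange surface. The cells described here were aerocytes in which Il1a was detected and neither Serpina3k nor Serpina3m was. They were chosen from the UMI counts themselves. A cell needed at least 1000 UMIs and under 7% mitochondrial UMIs. An aerocyte had at least 3 UMIs of Ednrb and of Car4, at most 3 of Plvap, at least 1 of Cdh5 and at most 4 of Ager. Of the 2054 aerocytes that passed, 358 had at least 1 UMI of Il1a and 0 of both serpins, and these are called Il1a aerocytes below. They made up 277 of 1440 aerocytes in the donor library and 81 of 614 in the recipient library, out of 8297 cells past the filter and 10103 barcodes in all. Another 628 aerocytes (422 and 206) had neither Il1a nor a serpin, and 1068 (741 and 327) had a Serpina3k or Serpina3m UMI.

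The cells came from chimeric mouse lungs, in which C57Bl recipients had received a suspension of tdTomato-labelled single cells 6 months before. Lungs of 3 such mice were dissociated and pooled, and live CD45- cells were sorted into tdTomato+ cells, which gave the donor library, and tdTomato- cells, which gave the recipient library. Both sorts were run once on the droplet platform of 10x Genomics, so the 2 libraries share the same host lungs, the same pool and the same dissociation. The donor strain, the promoter that drives tdTomato, and the ages and sexes of the mice are not given in the sources used here, and no tdTomato gene was counted. Since a group is a single library, nothing was tested between groups. All intervals below are exact 95% intervals, which cover counting error and not the spread between cells or mice. The libraries held 6319 and 3784 barcodes with medians of 5433 and 6056.5 UMIs. The 2 libraries shared 816 barcodes, of which the copy with more UMIs was kept, and 2 of the donor and 4 of the recipient Il1a aerocytes carried such a barcode. The 4 recipient cells were also the only recipient Il1a aerocytes with at least 5 UMIs of 13 pericyte and fibroblast genes. Without shared barcodes Il1a aerocytes made up 19.2% and 13.2% of aerocytes, as with them.

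Il1a encodes interleukin-1 alpha, a cytokine made without a signal peptide that can act from the nucleus, from the cell surface or after release from damaged cells. It signals through the receptor Il1r1 and its partner Il1rap to the adaptor Myd88 and on to NF-kB and AP-1, and Il1rn encodes the antagonist of that receptor. Serpina3k and Serpina3m encode serine protease inhibitors of a mouse gene cluster on chromosome 12 that acute-phase and inflammatory signals are known to induce. In the GENCODE M21 annotation (GRCm38), Il1a lies at chr2:129299610-129309972 on the minus strand. The antisense gene Gm14023 overlaps it at chr2:129297370-129307826 on the plus strand, and whether the counting used strand is not given in the sources used here. Gm14023 had 4 UMIs in donor and 1 in recipient aerocytes, against 1277 and 385 UMIs of Il1a. The models of Serpina3k (chr12:104338486-104346144) and Serpina3m (chr12:104338486-104394257) start at the same base, so the split of reads between these near-identical genes is uncertain, and the rule used both.

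The promoter of Il1a is shown because every cell here was chosen on its transcript, and that of Nfkbia, the gene of the NF-kB inhibitor IkappaB-alpha, because it was among the genes with higher counts in Il1a aerocytes in both libraries. Both sequences run from 250 bases before to 50 bases after the annotated start, are taken from RefSeq (GRCm38.p6), and read 5′ to 3′ on the gene's own strand. Il1a is at chr2:129309923-129310222 (minus strand), with a match to the AP-1 letters TGANTCA in capitals, and Nfkbia is at chr12:55492598-55492897 (minus strand), with a match to the NF-kB motif (GGGA, any base, TT, any base, CC) in capitals.
Il1a: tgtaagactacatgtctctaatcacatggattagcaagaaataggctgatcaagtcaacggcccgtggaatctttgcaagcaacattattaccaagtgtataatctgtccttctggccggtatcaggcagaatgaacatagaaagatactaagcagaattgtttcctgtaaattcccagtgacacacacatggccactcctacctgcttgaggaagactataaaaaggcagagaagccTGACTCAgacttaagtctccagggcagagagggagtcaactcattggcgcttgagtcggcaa
Nfkbia: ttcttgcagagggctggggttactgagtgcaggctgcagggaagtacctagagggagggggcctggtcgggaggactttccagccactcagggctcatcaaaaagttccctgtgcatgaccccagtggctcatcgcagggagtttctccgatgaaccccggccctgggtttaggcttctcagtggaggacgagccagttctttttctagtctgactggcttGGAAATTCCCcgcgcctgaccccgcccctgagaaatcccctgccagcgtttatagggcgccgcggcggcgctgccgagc
The match in Il1a, TGACTCA, ran from 12 to 6 bases before the start, and the match in Nfkbia, GGAAATTCCC on the strand shown, ran from 29 to 20 bases before it. Both motifs were searched on both strands of the same window in 32851 promoters, of which 7.81% held the AP-1 letters and 1.2% the NF-kB motif. No window shown held both motifs, so none overlapped. Promoters of 7 of the 12 genes named as higher below were found in the table, and the windows of Ythdf1, Tmem167, Ier3, Pcolce2, Vbp1 and Ier5 had neither match. A match is a stretch of letters and was not tested as a binding site.

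Among the CD45- cells sorted from these lungs, Il1a was found mostly in aerocytes. Over all 1440 donor aerocytes it reached 97.0 CPM (UMIs per 1000000 UMIs summed over the cells; interval 91.7 to 102.4), and over the 614 recipient aerocytes 77.0 CPM (69.5 to 85.1). General capillary cells, the other capillary type of the alveolus, were gated by Gpihbp1 and Plvap and had no UMI of Ednrb. They held 3.84 CPM (2.893 to 4.998) in the donor and 2.47 CPM (0.993 to 5.09) in the recipient library. Recipient alveolar type 1 cells had 0.769 CPM, pericytes 1.41 CPM and fibroblasts 0.894 CPM. The same 3 types of the donor library had 0 Il1a UMIs, in 43, 40 and 5 cells, where the upper ends of the intervals were 13.5, 17.8 and 76.5 CPM. Aerocytes held 79.2% of all Il1a UMIs of the donor library and 90.2% of those of the recipient library.

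**Figure D1:**
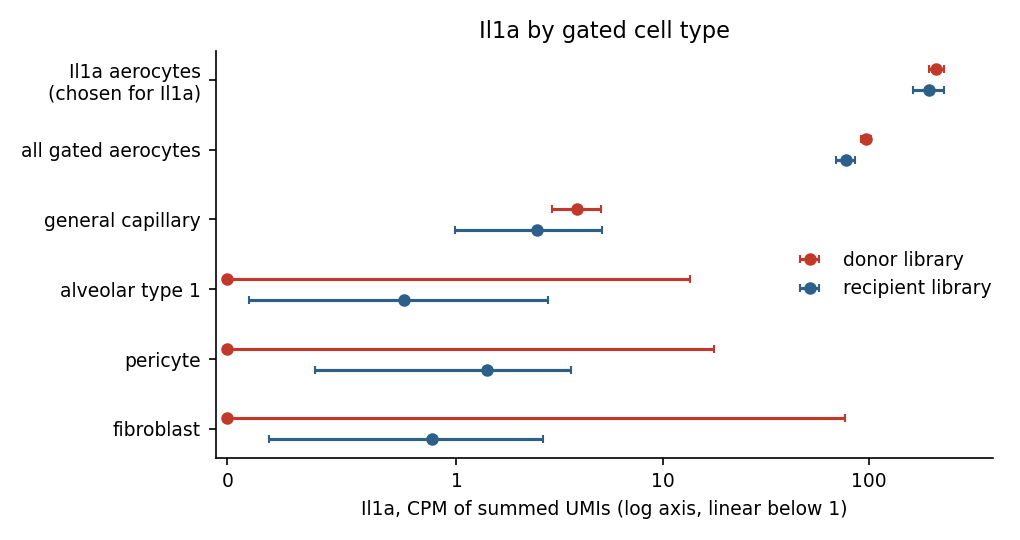
Il1a in gated cell types of the donor (red) and recipient (blue) libraries, as CPM of the UMIs summed over the cells of a type, with exact Poisson intervals; the axis is logarithmic above 1 CPM and linear below. All gated aerocytes lie at 97.0 and 77.0 CPM and general capillary cells at 3.84 and 2.47 CPM, while the Il1a aerocytes are high because Il1a chose them.

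Free RNA in droplets can give a cell a UMI of a gene it does not express. Il1a was detected in 2.09% of donor general capillary cells (median depth 5448 UMIs) and in 41.1% of donor aerocytes (8848.5 UMIs), and in 1.39% and 32.1% in the recipient library (5798 and 7934.5 UMIs). With every cell thinned to 2000 UMIs, the donor shares were 0.697% and 15.4% and the recipient shares 0.930% and 14.7%. At equal depth the share in aerocytes was thus far above the share in these capillary cells of the same library. The capillary gate left out any cell in which Ednrb, an aerocyte transcript, was detected. The capillary shares therefore cannot measure free RNA, and its part was not tested.

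Within the Il1a aerocytes the gene was detected at few UMIs per cell, as the rule implies. In the donor library 143 of 277 cells (51.6%) had 1 UMI, 65 (23.5%) had 2 and 69 (24.9%) had 3 or more, up to 9. Among recipient cells 47 of 81 (58.0%) had 1 UMI, 22 (27.2%) had 2 and 12 (14.8%) had 3 or more, up to 5. Scaled to 10000 UMIs per cell, Il1a had a median of 1.72 (0.435 to 9.38) in donor and 1.71 (0.606 to 7.11) in recipient Il1a aerocytes, so the ranges overlapped. Their summed level, set by the choice, was 212 and 194 CPM. Few cells stood at the edges of the gate. At 3 UMIs of Ednrb there were 10 donor and 6 recipient Il1a aerocytes, and 6 and 2 cells at 2 UMIs missed the gate by that alone. At 3 UMIs of Plvap there were 8 and 1, with 2 and 0 just outside at 4.

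Il1a aerocytes were deeper cells than aerocytes with neither transcript. Their median was 9282 UMIs (quartiles 7728 and 11041) against 8241.5 (6288 and 9871.5) in the donor library, a ratio of 1.13. Among recipient cells it was 8353 (6618 and 10332) against 6944.5 (5058.25 and 9015.75), a ratio of 1.203. Aerocytes with Serpina3k or Serpina3m, which are also chosen by a detected UMI, had medians of 9055 and 8269. Median genes per cell were 3190 against 2987.5 (donor) and 3139 against 2690.0 (recipient), and median mitochondrial shares 2.77% against 2.97% and 2.67% against 2.89%.

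The share of Il1a aerocytes moved with depth. It was 19.2% of donor aerocytes (17.2% to 21.4%) and 13.2% of recipient aerocytes (10.6% to 16.1%) at full depth. Thinned to 4000 UMIs per cell, which left out 38 and 44 shallower aerocytes, the shares were 16.3% (14.4% to 18.3%) and 11.4% (8.91% to 14.3%). Thinned to 6000 UMIs, which left out 205 and 156, they were 17.4% (15.3% to 19.6%) and 14.2% (11.1% to 17.7%), so the intervals of the 2 libraries overlapped there. With the aerocytes of a library divided into 5 equal bins by depth, the donor share was 13.2% in the shallowest bin, 22.2% in the middle and 20.5% in the deepest. The recipient share was 6.50% in the shallowest and 16.3% in the deepest bin. The Il1a level over all aerocytes, which already divides by depth, was 56.97, 77.6, 98.4, 108 and 114 CPM from the shallowest to the deepest donor bin, and 47.7, 61.7, 82.1, 96.6 and 76.7 CPM in the recipient bins. Il1a per UMI was thus higher in the deeper bins, except that the deepest recipient bin lay below the one before it.

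**Figure D2:**
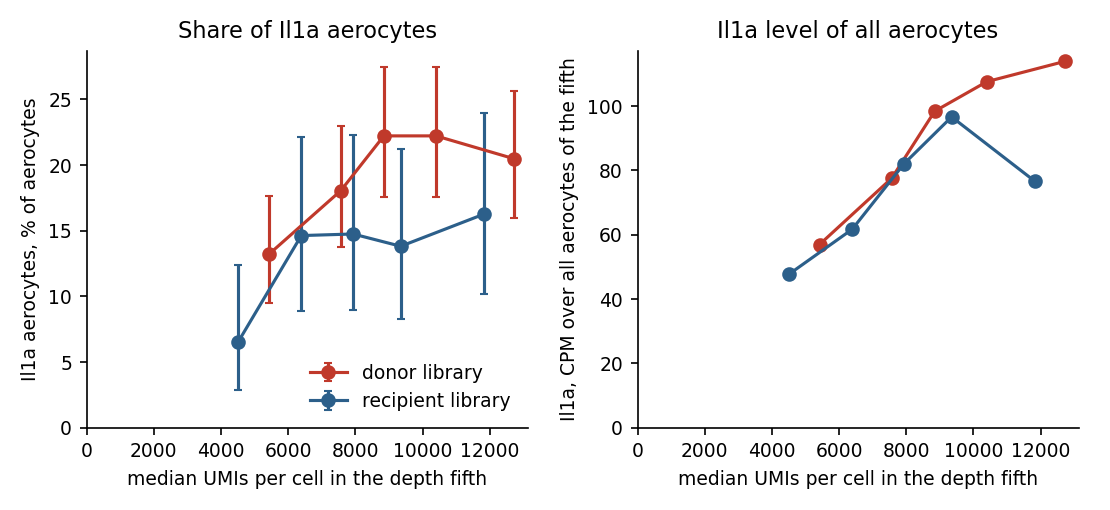
Left, Il1a aerocytes as a percentage of the aerocytes in each of 5 depth bins, with exact binomial intervals, against the median UMIs of the bin; right, Il1a in CPM over all aerocytes of the same bin. The donor share goes from 13.2% to 20.5% and the donor level from 56.97 to 114 CPM between the shallowest and the deepest bin.

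Il1a was detected with and without the serpins. At full depth Il1a was found in 42.5% (38.9% to 46.2%) of donor aerocytes with a serpin UMI and in 39.6% (35.98% to 43.36%) of those without. The recipient shares were 35.5% (30.3% to 40.9%) and 28.2% (23.1% to 33.8%). Thinned to 4000 UMIs, with all calls made again, they were 23.5% and 27.1% in the donor library and 25.9% and 19.2% in the recipient library, so the order was not the same in the 2 libraries. Il1a aerocytes are therefore only the serpin-negative portion of the aerocytes in which Il1a was detected, 277 of 592 in the donor and 81 of 197 in the recipient library.

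A single UMI is a noisy mark of a cell. Of donor Il1a aerocytes with at least 4000 UMIs, thinning to 4000 left an Il1a UMI in 166 of 274 (60.6%), and of recipient ones in 52 of 79 (65.8%). To measure Il1a apart from the UMIs that chose the cells, the UMIs of each aerocyte were divided at random into 2 parts with equal chance, the call was made in the first part and Il1a was counted in the other. Cells called as Il1a aerocytes then held 172 CPM (149 to 197) in the donor library, against 50.6 CPM (42.3 to 60.1) in cells called as having neither, a ratio of 3.39 (2.70 to 4.26). The recipient levels were 138 CPM (99.2 to 188) and 52.3 CPM (40.0 to 67.2), a ratio of 2.64 (1.73 to 3.99). Over 100 such divisions the median ratio was 3.02 (range 2.37 to 3.88) in the donor and 3.45 (2.30 to 6.40) in the recipient library. The held-out level was thus higher in the called cells in both libraries and in each of the 100 divisions. The divisions reuse the same UMIs of the same cells, so they are not separate evidence. Called cells were also deeper in the first part than cells with neither. Their medians there were 4770 against 4117.5 UMIs (donor) and 4258 against 3665 UMIs (recipient), and the part of depth was not tested. Cells called as having neither still held Il1a, so a cell without an Il1a UMI is not a cell without the transcript. Aerocytes with a serpin in the first part had 106 CPM (94.1 to 118) and 70.2 CPM (55.0 to 88.3).

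**Figure D3:**
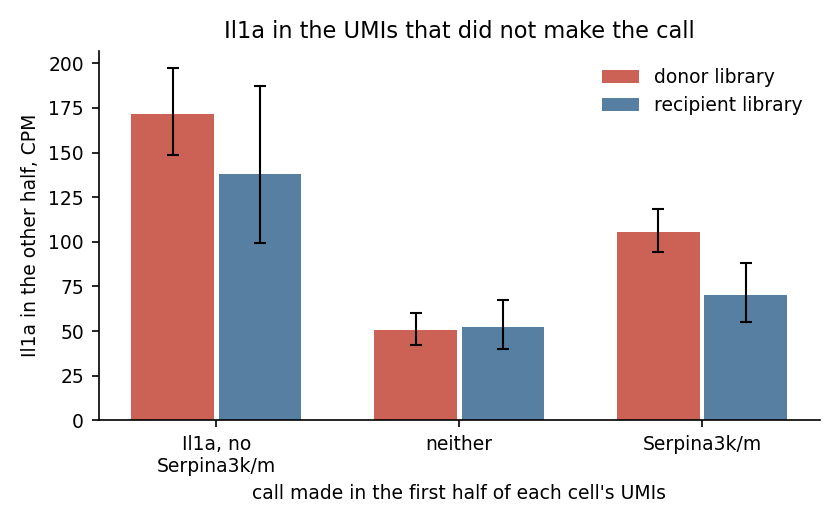
Il1a in the UMIs of each aerocyte that did not make the call, as CPM with exact Poisson intervals, for cells called in the other UMIs as Il1a aerocytes, as having neither transcript, or as having Serpina3k or Serpina3m. Cells called by Il1a lie at 172 and 138 CPM and cells with neither at 50.6 and 52.3 CPM.

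The same division of UMIs was made for every gene of similar level, comparing aerocytes with and without the gene in the first part. For Il1a the ratio was 3.55 in the donor library, and 14 of 1421 genes within 1.5-fold of its level had a larger one, with a median of 1.11. For recipient aerocytes it was 3.86, with 43 of 1751 genes larger and a median of 1.18. Il1a was therefore among the more unevenly spread genes of its level in aerocytes. Among the genes with larger ratios were Serpina3k (9.73 and 9.13), Nfkbiz, an atypical IkappaB protein of the NF-kB pathway (4.34 and 5.63), and Csrnp1, a cysteine- and serine-rich nuclear protein (3.68 and 5.41), which were picked after their values were seen.

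Il1a aerocytes carried the markers of aerocytes. Apln, the ligand apelin and a classical aerocyte transcript, was detected in 252 of 277 donor Il1a aerocytes (91.0%) and in 73 of 81 recipient ones (90.1%), and Chst1, a sulfotransferase, in 95.7% and 92.6%. Apln was at 472 CPM in donor Il1a aerocytes and 428 CPM in aerocytes with neither, and at 459 and 409 CPM in the recipient library. Chst1 was at 451 and 439 CPM in the donor and 442 and 430 CPM in the recipient library. Ednrb, the endothelin receptor used in the gate, was at 1418 and 1462 CPM and at 1596 and 1609.6 CPM. Gdf15, a stress-induced cytokine of the TGF-beta family given as a marker of these cells, was detected in 31.8% of donor and 29.6% of recipient Il1a aerocytes, against 33.2% and 29.1% of aerocytes with neither. Its level was 250 against 230 CPM in the donor library and 140 against 175 CPM in the recipient library. The log2 ratio of Gdf15 was 0.12 (−0.03 to 0.27) and −0.32 (−0.67 to 0.02). Apart from Il1a, none of these markers set Il1a aerocytes apart from other aerocytes by 1.5-fold. The aerocyte list of 10 genes besides those of the gate had medians of −0.002 and −0.16 on the log2 scale, against 0.004 and 0.03 over all genes compared. Its 2 genes that were higher in both libraries were Apln and Chst1, and 5 were lower in both, namely Tbx2, Fibin, Emp2, Prx and Kitl, beside 29.8% and 23.6% of all genes compared. Emp2, an epithelial membrane protein, was at 3749 and 4014 CPM in the donor and 4144 and 4602 CPM in the recipient library, and Tbx2, a T-box transcription factor, at 752 and 797 CPM and at 733 and 866 CPM.

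Markers of general capillary cells, the nearest cell type, were present throughout. The 11 genes of that list, Plvap of the gate left out, summed to 2408 CPM in donor and 2319 CPM in recipient Il1a aerocytes, against 2249.9 and 2032 CPM in aerocytes with neither, and 274 of 277 and 78 of 81 Il1a aerocytes had at least 5 such UMIs. Most of the sum was Hpgd, the prostaglandin-degrading dehydrogenase, at 1895 and 1795 CPM in Il1a aerocytes and 1787 and 1703 CPM in the others. Gpihbp1, which anchors lipoprotein lipase on capillaries, was at 167 and 180.02 CPM in the donor library. Its recipient levels were 217 and 115 CPM, a log2 ratio of 0.92 (0.59 to 1.24), and 3 cells held 47.4% of the UMIs in the Il1a aerocytes. The venous list summed to 32.5 and 33.6 CPM in the donor library and to 58.6 and 22.4 CPM in the recipient library, where 3 cells held 22 of the 28 Vcam1 UMIs. The arterial list summed to 27.9 and 25.3 CPM and to 37.2 and 17.1 CPM. Cd74, the invariant chain of MHC class II, was at 56.2 and 58.9 CPM in donor cells and at 48.6 and 11.8 CPM in recipient cells, with 29 of 34 UMIs in 3 cells. The part of these cells in the recipient results was not tested.

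Other marker lists were low except for that of alveolar type 1 cells. The 4 lymphatic genes had 0 UMIs in donor and 14 in recipient Il1a aerocytes, with the defining Prox1 at 0 in both. The alveolar type 2 genes summed to 29.5 and 57.2 CPM. The leukocyte list of 10 genes summed to 15.3 CPM in donor and 12.9 CPM in recipient Il1a aerocytes. Its pan-leukocyte gene Ptprc had 5 UMIs and 0 UMIs, and Il1b, the interleukin-1 of myeloid cells, 2 UMIs and 0 UMIs. Markers of pericytes and fibroblasts sat in a few cells. At least 5 UMIs of 13 such genes were found in 3 of 277 donor and 4 of 81 recipient Il1a aerocytes, and in 10 of 422 and 16 of 206 aerocytes with neither. Doublets were not called by a program, and whether these cells are doublets was not tested. The alveolar type 1 list summed to 3075 and 3045 CPM in Il1a aerocytes, against 2893 and 3055 CPM in aerocytes with neither, nearly all of it Hopx (2301 and 2179 CPM in Il1a aerocytes) and Clic5 (758 and 842 CPM), while its defining gene Pdpn was at 0.

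The question of the next comparison is what else Il1a aerocytes differed in. In each library their summed UMIs were set against those of aerocytes with neither transcript, over 3346 genes with at least 50 CPM in the higher group and at least 20 counts in both libraries, the genes of the rule left out. At least 1.5-fold in the same direction in both libraries, 0 genes were higher (0% of the genes compared) and 3 were lower (0.0897%). Taken singly, the donor library had 0.145% of genes past the fold upwards and 0.145% downwards, and the recipient library, with fewer cells, 2.67% and 2.18%. For 95.4% of the genes the whole donor interval lay within 1.5-fold of equality, for 54.6% the recipient interval, and for 54.1% both. In the donor library, where the counts are larger, Il1a aerocytes were thus within 1.5-fold of the other serpin-negative aerocytes for nearly all genes compared.

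The 3 genes that were lower were Cox4i2, Pde5a and Pdzd2, of which Cox4i2 and Pde5a are known from pericytes. Cox4i2, a subunit of cytochrome c oxidase, was at 15.7 CPM in donor Il1a aerocytes and 54.3 CPM in aerocytes with neither, and at 24.3 and 268 CPM in the recipient library. In the aerocytes with neither, 3 cells held 50.3% of its donor UMIs and 3 cells 25.7% of its recipient UMIs. Pde5a, a cyclic GMP phosphodiesterase, was at 34.04 and 52.04 CPM and at 42.9 and 181 CPM. Pdzd2 was at 62.0 and 93.9 CPM and at 97.2 and 355 CPM. The pericyte list of 6 genes summed to 51.3 CPM in Il1a aerocytes and 147 CPM in aerocytes with neither in the donor library, and to 84.3 and 724 CPM in the recipient library. The fibroblast list summed to 10.3 and 14.2 CPM and to 264 and 125 CPM. With the cells of at least 5 pericyte or fibroblast UMIs left out, 0 genes were lower, and Cox4i2 stood at 2.72 and 2.96 CPM in the donor and at 9.28 and 11.4 CPM in the recipient library.

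**Figure D4:**
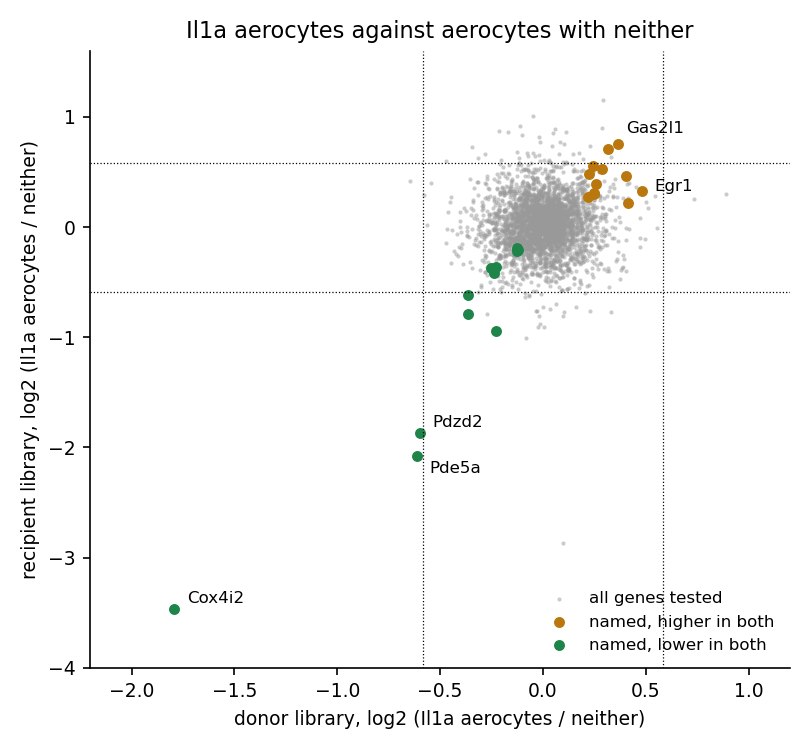
Each point is 1 of 3346 genes, by the log2 ratio of Il1a aerocytes over aerocytes with neither transcript in the donor (x) and the recipient library (y); dotted lines mark 1.5-fold. No gene passes 1.5-fold upwards in both libraries, and the 3 past it downwards in both are Cox4i2, Pde5a and Pdzd2.

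Smaller differences that were in the same direction in both libraries, with both intervals clear of equality, included several early response genes. The 12 named by size as higher were Trim16, Gas2l1, Egr1, Lyve1, Ythdf1, Tmem167, Ier3, Gem, Pcolce2, Nfkbia, Vbp1 and Ier5, out of 37 that met the same conditions. Egr1, an early growth response transcription factor, was at 687 CPM (655 to 719) in donor Il1a aerocytes and 491 CPM (469 to 515) in aerocytes with neither, and at 552 CPM (498 to 609) and 440 CPM (408 to 475) in the recipient library. As few as 3 recipient cells held 35.5% of the Egr1 UMIs of the Il1a aerocytes, against 5.96% in the donor library. Without cells of pericyte or fibroblast UMIs, recipient Egr1 was at 456 and 382 CPM. All 12 genes stayed higher in both libraries without those cells. However, some recipient log2 intervals then spanned equality, those of Tmem167 (−0.08 to 0.73), Gem (−0.02 to 0.56), Nfkbia (−0.01 to 0.43) and Ier5 (−0.03 to 0.39). Recipient Pcolce2 went from 0.56 to 0.21 on the log2 scale. Nfkbia was at 511 CPM (484 to 540) and 383 CPM (363 to 404) in the donor library, and at 402 CPM (356 to 451) and 344 CPM (315 to 375) in the recipient library.

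Ier3, an immediate early gene tied to cell survival, was at 1246 and 1048 CPM in the donor library and at 999 and 806 CPM in the recipient library. Ier5, another immediate early gene, was at 552 and 474 CPM and at 467 and 386 CPM, and Gem, a small GTPase, at 284 and 239 CPM and at 240.1 and 195 CPM. Trim16, a tripartite motif protein with roles in stress responses, was at 163 and 123 CPM and at 124 and 90.2 CPM. Lyve1, a hyaluronan receptor best known from lymphatic vessels and also found on lung capillaries, was at 296 and 238 CPM and at 332 and 203 CPM. In all 12 genes the ratio was under 1.5-fold in the donor library, and it passed 1.5-fold in the recipient library for Gas2l1 and Lyve1 only, at 1.69 and 1.63.

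Among the genes named as lower, besides the pericyte transcripts, were F2r, Zfp871, Itga1, Pnn, Tmsb10, Hist1h2bc, Clstn1, Cst3 and Sparc. Cst3, the protease inhibitor cystatin C, was at 1451 and 1583 CPM in the donor and 1723 and 1961 CPM in the recipient library. Clstn1, a calsyntenin, was at 369 and 403 CPM and at 352 and 409 CPM. Tmsb10, an actin-binding thymosin, was at 120.5 and 141 CPM and at 144 and 278 CPM. Without the cells that held pericyte or fibroblast UMIs, Tmsb10 was at 103 and 117 CPM in the donor and at 85.1 and 69.9 CPM in the recipient library, and F2r, Itga1 and Sparc were likewise higher in Il1a aerocytes of the recipient library.

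Some of the genes named as higher went with the number of Il1a UMIs in the donor library. The classes use the same UMIs as the rule, and the genes were named against the lowest class, aerocytes with neither. A rise from that class to the Il1a aerocytes together was therefore fixed by the choice of genes. Egr1 was at 491 CPM in aerocytes with neither, 536 CPM at 1 UMI of Il1a, 739 CPM at 2 and 898 CPM at 3 or more, and Nfkbia at 383, 461, 556 and 561 CPM. Ier3 was at 1048, 1129, 1132 and 1536 CPM, and Gem and Ier5 had the same order. The other 7 did not, among them Lyve1 at 238, 307, 283 and 287 CPM and Pcolce2 at 322, 374, 268 and 485 CPM. The median depth of the same classes was 8241.5, 8629, 8952 and 10827 UMIs, so depth moved with them, and its part was not tested. In the recipient classes of 47, 22 and 12 cells, none of Egr1, Nfkbia, Ier3, Gem and Ier5 had that order. Egr1 was at 649.8 CPM at 1 UMI, 287 CPM at 2 and 725 CPM at 3 or more. Trim16 and Tmem167 had the order there and not in the donor library. From aerocytes with neither upwards they were at 90.2, 106, 132 and 174 CPM, and at 101, 122, 146.0 and 146.8 CPM. Gdf15 did not rise with Il1a in either library. It was at 229.8 CPM in donor aerocytes with neither and fell over the donor classes with Il1a, at 296, 229.7 and 187 CPM. In the recipient library it was at 175 CPM in aerocytes with neither and at 143, 198 and 18.3 CPM with Il1a, the last from 2 UMIs.

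The early response list holds immediate early and heat shock genes such as Fos, Junb, Klf2 and Dnajb1, which many stimuli induce, enzymatic dissociation of tissue among them. Of its 23 genes 20 were compared, and 0 passed 1.5-fold in both libraries. In the donor library 19 of the 20 were higher in Il1a aerocytes, 15 with an interval above equality and 0 below, beside 7.44% and 5.23% of all genes compared, with a median log2 ratio of 0.21 against 0.004 over all genes compared. Of the recipient values 13 of the 20 were higher, 5 with an interval above and 1 below, beside 6.04% and 3.92%, with a median of 0.04 against 0.03. Of the 20, 12 were higher and 0 lower in both libraries, beside 29.8% and 23.6% of all genes compared. Junb, a subunit of AP-1, was at 2392 and 2003 CPM in donor and 1633 and 1585 CPM in recipient cells. Socs3, an inhibitor of cytokine signalling, was at 469.7 and 339 CPM in donor cells, whereas in recipient cells it was at 280.1 CPM in Il1a aerocytes and 316 CPM in the others. Atf3, a stress-induced transcription factor, was likewise at 580.2 and 439 CPM in donor and at 316 and 342 CPM in recipient cells.

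These values moved with depth. With aerocytes with neither weighted to the depth of the Il1a aerocytes, the median of the early response list was 0.15 in the donor library, with 19 of 20 genes above 0, and −0.06 in the recipient library, with 7 of 20 above 0. The ratio of Egr1 went from 1.40 to 1.30 in the donor and from 1.25 to 1.08 in the recipient library, and that of Nfkbia from 1.33 to 1.30 and from 1.17 to 1.12. All 12 genes named as higher stayed above 1 in both libraries with that weighting.

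Aerocytes with a Serpina3k or Serpina3m UMI took no part in choosing these genes, so the contrast of Il1a detected against not detected was repeated in them. It set 315 cells against 426 in the donor library (median depths 9948 and 8378 UMIs) and 116 against 211 in the recipient library (9105.5 and 7961). Of the 12 genes named as higher, 9 were higher with Il1a in both libraries, beside 30.8% of the 3346 genes. In both libraries 5 of them had an interval above equality, namely Egr1, Ier3, Gem, Nfkbia and Ier5. Egr1 was at 630 CPM with Il1a and 505 CPM without in the donor library, and at 705 and 483 CPM in the recipient library. Nfkbia was at 457 and 398 CPM and at 431 and 351 CPM, and Ier5 at 514 and 441 CPM and at 471 and 386 CPM. With cells without Il1a weighted to the depth of those with it, the ratios of these 5 genes stayed above 1 in both libraries. They were smaller, except that of recipient Gem, which went from 1.228 to 1.245. Donor Egr1 went from 1.246 to 1.105 and recipient Egr1 from 1.459 to 1.289. Donor Ier3 went from 1.144 to 1.083 and recipient Ier3 from 1.107 to 1.016. Whether the weighted ratios were clear of equality was not tested.

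The other 7 genes did not come out alike in the serpin-positive cells. Lyve1 was at 424 and 403 CPM in the donor library and at 408 and 414 CPM in the recipient library. Pcolce2, an enhancer of procollagen processing, was at 290.0 CPM with Il1a and 367 CPM without in the donor library, the reverse of its order in serpin-negative cells, and at 490 and 390.2 CPM in the recipient library. Trim16, Gas2l1, Ythdf1, Tmem167 and Vbp1 had intervals that spanned equality in both libraries. With the depth weighting the donor ratio of Ythdf1 went from 1.04 to 0.961.

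**Figure D5:**
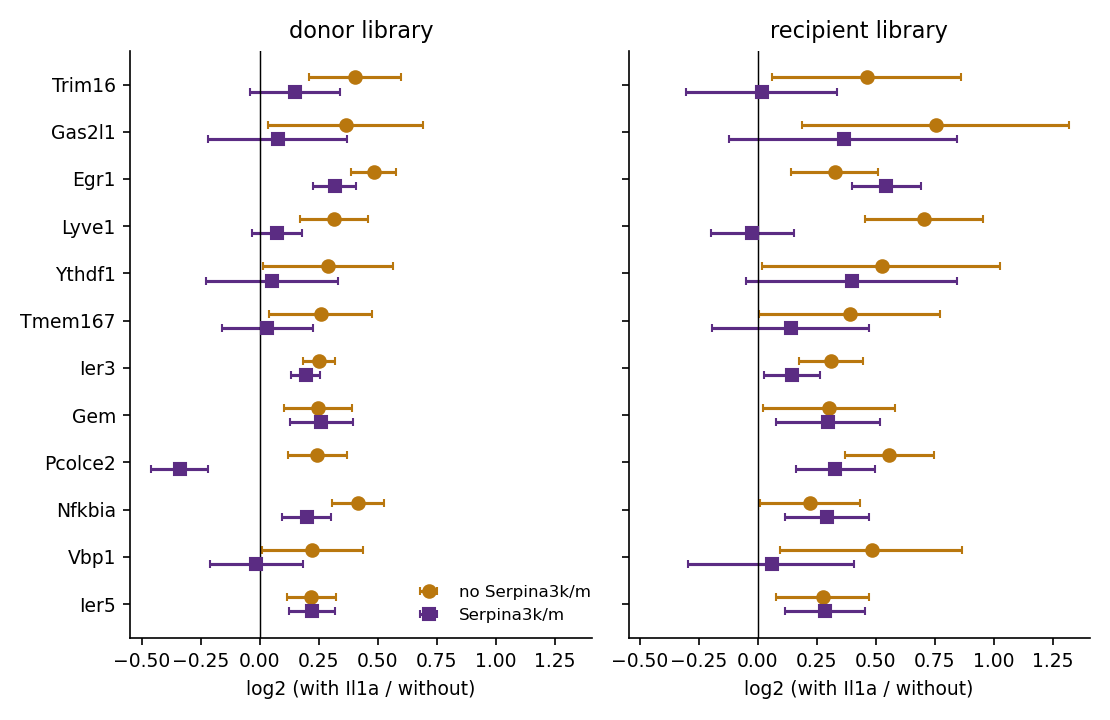
Log2 ratio of aerocytes with Il1a over aerocytes without it, with exact 95% intervals, for the 12 genes named as higher, in aerocytes without Serpina3k/m (circles, where the genes were named) and with Serpina3k/m (squares). Egr1, Ier3, Gem, Nfkbia and Ier5 lie above 0 with their intervals in all 4 contrasts, and Pcolce2 lies below 0 in serpin-positive donor cells.

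The early response list was set beside all genes in these cells too. Its median log2 ratio in serpin-positive aerocytes was 0.22 in the donor library, against 0.007 over all genes compared, and 0.21 in the recipient library, against 0.02. By their interval 17 of 20 genes were above equality and 0 below in the donor library, beside 7.23% and 5.20% of all genes, and 13 above and 4 below in the recipient library, beside 6.81% and 3.97%. The cells with Il1a were the deeper ones here as well. With the depth weighting the medians were 0.14 and 0.08. Again 0 genes of 3294 compared passed 1.5-fold in both libraries in either direction (0%). The 4 genes below equality in recipient cells were Fos, Hspa1a, Hspa1b and Hsp90aa1. In these cells Fos, the founding member of the AP-1 family, was at 1150 CPM with Il1a and 1286 CPM without, against 1280.2 and 985 CPM in the donor library. Atf3 was at 573 and 459 CPM in the donor and 477 and 378 CPM in the recipient library.

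Most genes of the pathway through which interleukin-1 alpha acts were too low in aerocytes to be compared. Of the 22 further genes of the interleukin-1 list only Capn2, a calpain, and S100a13, a partner in secretion of interleukin-1 alpha, were high enough to be compared, at 230 and 216 CPM and at 423 and 406 CPM in the donor library, and neither passed 1.5-fold. The receptor Il1r1 was at 26.0 CPM in donor Il1a aerocytes and 28.7 CPM in aerocytes with neither, and at 30.0 and 29.6 CPM in the recipient library. Il1rap was at 37.5 and 28.4 CPM and at 31.4 and 50.7 CPM, with both intervals spanning equality. Myd88 was at 19.5 and 17.3 CPM in the donor and 34.3 and 17.1 CPM in the recipient library, with 51 and 24 UMIs in the Il1a aerocytes. In recipient fibroblasts Il1r1 reached 62.0 CPM. The antagonist Il1rn had 0 UMIs in aerocytes of both libraries, and so did the related cytokine Il33.

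Of 24 NF-kB target genes, 4 were compared, Nfkbia, Nfkbiz, Nfkb1 and Icam1, and 0 passed 1.5-fold in both libraries. Icam1, an adhesion molecule, was at 969 and 907 CPM in donor and at 833 and 813 CPM in recipient cells. Nfkbiz was at 107 and 81.6 CPM in donor cells, and at 60.01 CPM in Il1a aerocytes and 77.6 CPM in the others in the recipient library. The cytokine genes Il6, Tnf, Csf2 and Csf3 of that list had between 0 and 2 UMIs in the Il1a aerocytes. Of 20 p53 target genes, 11 were compared and 0 passed the fold. Cdkn1a, the cell cycle inhibitor p21, was at 1180 and 1192 CPM in donor and 1045 and 982 CPM in recipient cells, and Btg2, an antiproliferative gene, at 620 and 543 CPM and at 573 and 457 CPM.

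Interferon-induced genes were few. Of 12, 5 were compared, with median log2 ratios of 0.30 in the donor and 0.17 in the recipient library, and 0 passed 1.5-fold in both. Isg15, a ubiquitin-like protein induced by interferon, was at 116 and 81.3 CPM in donor cells and at 81.4 and 72.4 CPM in recipient cells. Oasl2 was at 94.5 and 76.8 CPM and at 91.4 and 68.4 CPM. Below the minimum level, Rsad2, the antiviral protein viperin, was at 37.5 and 5.69 CPM and at 14.3 and 5.26 CPM, and the chemokine Cxcl10 at 23.3 and 4.83 CPM and at 5.72 and 1.32 CPM. Of the genes of the integrated and unfolded protein stress responses 10 were compared, with medians of 0.08 and −0.01, and of the angiogenesis genes 10, with medians of 0.0077 and −0.05; 0 of either passed the fold.

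Set against the serpin-positive aerocytes, Il1a aerocytes were lower in neighbours of the serpins that chose them. Of 3311 genes compared, 3 were at least 1.5-fold lower in both libraries (0.0906%) and 1 was higher (0.0302%). Serpina3n was at 140 CPM in donor Il1a aerocytes and 631 CPM in serpin-positive cells, and at 194 and 750.1 CPM in the recipient library. Serpina3g was at 21.04 and 90.2 CPM and at 21.4 and 60.7 CPM, and Serpina3f at 21.4 and 73.0 CPM and at 27.1 and 59.7 CPM. These genes are near copies of those in the rule, so reads may be split among them. The part of such splitting in these values was not tested. In aerocytes with neither, Serpina3n was at 156 and 166 CPM. The gene that was higher, the interferon-induced Ifit3, was at 74.2 and 45.3 CPM and at 54.3 and 33.4 CPM, with 38.1% and 63.2% of its UMIs in the Il1a aerocytes held by 3 cells.

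Donor and recipient Il1a aerocytes were compared next. Of 3623 genes compared, 60 were at least 1.5-fold higher in donor Il1a aerocytes (1.66%) and 107 lower (2.95%). In aerocytes with neither transcript the counts were 19 (0.533%) and 69 (1.93%) of 3567. Donor origin, the tdTomato sort and the library cannot be told apart here. Il1a itself was at 212 and 194 CPM, a log2 ratio of 0.12 (−0.15 to 0.40), and Apln and Chst1 differed by less than their intervals.

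The members of the gene lists past 1.5-fold are given here, beside 1.66% and 2.95% of all genes. Lists not named in this paragraph had no member past it. Of the fibroblast list 2 of 2 were lower in donor cells, Pdgfra and Tcf21, the latter at 4.59 and 71.4 CPM. Without shared barcodes Tcf21 was at 4.63 and 6.19 CPM. Of the early response list 1 of 20 was higher in donor cells (Socs3, at 469.7 and 280.1 CPM) and 1 lower (Hspa1b, a heat shock protein, at 124 and 199 CPM). Of the stress response list 1 of 10 was higher (Atf3), of the p53 targets 1 of 11 (Gdf15), of the NF-kB targets 1 of 4 (Nfkbiz), of the interferon-induced genes 1 of 6 (Ifit1, at 52.02 and 34.3 CPM) and of the general capillary list 2 of 5 (Ptprb and Tek); 0 of these 5 lists' genes were lower. Csrnp1, among the 8 named by size, was at 152 CPM (138 to 168) in donor and 74.3 CPM (55.5 to 97.4) in recipient Il1a aerocytes, and at 108 and 80.3 CPM in aerocytes with neither. Atf3 was at 580.2 and 316 CPM, a log2 ratio of 0.88 (0.67 to 1.09), and in aerocytes with neither at 439 and 342 CPM. Gdf15 was at 250 and 140.0 CPM, a log2 ratio of 0.83 (0.53 to 1.16), with 98 recipient UMIs in 24 cells. Nfkbiz was at 107 and 60.01 CPM, and Gadd45g, a growth arrest gene, at 280.0 and 160.0 CPM. The interferon-induced GTPases Iigp1 (61.2 and 14.3 CPM) and Irgm1 (71.1 and 35.7 CPM) were also named by size, with 3 cells holding 49.4% of the donor Iigp1 UMIs. She (50.5 and 18.6 CPM), Impdh2 (50.1 and 21.4 CPM), Ptprb (56.6 and 25.7 CPM), Neurl3 (75.7 and 37.2 CPM) and Litaf (79.9 and 40.01 CPM) were the others named by size. Ptprb, a phosphatase of endothelial cells, was also higher in donor aerocytes with neither, at 51.5 and 7.90 CPM. The early response list had a median log2 ratio of 0.30 in Il1a aerocytes and 0.16 in aerocytes with neither, against 0.005 over all genes compared in Il1a aerocytes. Whether the 2 contrasts differ was not tested.

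The genes lowest in donor relative to recipient Il1a aerocytes included genes known from lung fibroblasts. G0s2, an inhibitor of triglyceride lipase, had 0 UMIs in donor Il1a aerocytes and 98 in recipient ones, at least 122-fold lower when 3 counts stand in for 0 in the donor cells together, and Pdgfra, a receptor of platelet-derived growth factor, 0 and 57 UMIs, at least 71.0-fold lower. Without the 4 recipient cells of shared barcodes 2 UMIs of G0s2 and 3 of Pdgfra were left, which gives no fold, and 67 genes were lower and 63 higher in donor Il1a aerocytes. Of the recipient UMIs with those cells 3 cells held 98.0% for G0s2 and 94.7% for Pdgfra. Inmt, Mgp, Mfap4, Sod3, Itga8 and Ces1d had 69.6% to 92.6% of their recipient UMIs in 3 cells. Mgp had 230 recipient UMIs in all and 69 without shared barcodes, and Inmt 169 and 21. With the cells of at least 5 pericyte or fibroblast UMIs left out, 64 genes (1.8%) were lower and 61 (1.71%) higher in donor Il1a aerocytes, of 3565 compared, and in aerocytes with neither 27 (0.769%) and 22 (0.626%) of 3512. Without those cells Atf3 was at 576 and 260 CPM and Gdf15 at 253 and 150.01 CPM.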

How the data were processed

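The authors deposited unnormalized UMI counts for each gene in each called barcode, from Cell Ranger on mm10. Per the file headers and the submitters' processing notes the version was 4.0.0, while the labels' protocol gives 3.0.1. The authors' cell labels were not used here. A barcode in both libraries kept its copy with more UMIs. UMIs were summed over the cells of a group and library and scaled to CPM, with exact Poisson, exact conditional (ratios) and Clopper-Pearson intervals at 95%, for counting error only. Symbols with several identifiers were summed. A gene was compared at 50 CPM in the higher group and 20 counts, and counted past 1.5-fold. Named genes had intervals clear of equality in the same direction in both libraries; the 12 with the largest smaller ratio each way were taken, and 8 each way between libraries. The cell groups, the 21 gene lists and the comparisons were chosen with earlier results of these data known. The calls were tested on simulated cells with planted changes, drawn from a common profile in each library. Those cells had no further spread and no mixed cells, so the simulation cannot speak to genes held by a few cells. Python 3.11.15, numpy 2.4.6, scipy 1.17.1, pandas 2.3.3 and matplotlib 3.10.9 were used. Alternatives changed the Il1a minimum, the filters, the gate, the scaling, the depth weighting and the reference cells. The repeat in serpin-positive cells, the division of UMIs and the removal of cells with pericyte or fibroblast UMIs were chosen after seeing the data.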

Additional observations from a re-analysis of the deposited data

How the results depend on the processing

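No paired analysis was possible because each group is 1 library. For the same reason no replicate could be left out. Of 66 values of shares, depth ratios and gene counts under the alternatives, 43 stayed within their interval or within 1.5 times the count, and 23 moved. Of 720 values of named genes, 26 changed direction. Requiring 2 UMIs of Il1a gave shares of 9.31% (donor) and 5.54% (recipient), a donor depth ratio of 1.21, 6 genes lower in Il1a aerocytes than in those with neither, 207 genes higher and 254 lower in donor than recipient Il1a aerocytes, and −0.015 for recipient Egr1 (log2). Leaving out shared barcodes, which removed the 4 recipient Il1a aerocytes with pericyte or fibroblast UMIs, gave 67 genes lower in donor Il1a aerocytes, and log2 ratios of 0.051 for Itga1 and 0.075 for Sparc in the recipient library. A stricter gate (0 UMIs of Plvap, at most 1 of Ager) gave 5 genes lower, and 0.011 for recipient Sparc. Thinning to 4000 UMIs gave a donor share of 16.3%. Weighting cells equally gave 0 genes lower, and weighting to the depth of Il1a aerocytes gave 5.

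A minimum of 10 CPM gave 14 genes higher and 53 lower in Il1a aerocytes, and 506 higher and 860 lower between donor and recipient; with no minimum but 1 count these were 207, 275, 1088 and 2151. Against serpin-positive aerocytes 1 gene was higher; in the donor library Lyve1 was at −0.48, Pde5a at 0.10, Pdzd2 at 0.39, Tmsb10 at 0.43 and Sparc at 0.17, and in the recipient library Trim16 at −0.0088, Egr1 at −0.038, Lyve1 at −0.31, Gem at −0.068 and Itga1 at 0.026. Within serpin-positive aerocytes 0 genes were lower; Pcolce2 was at −0.34, Vbp1 at −0.015, F2r at 0.16, Itga1 at 0.073 and Sparc at 0.064 in the donor library, and Lyve1 at −0.024 in the recipient library. Without cells of pericyte or fibroblast UMIs 0 genes were lower in Il1a aerocytes and 64 in donor Il1a aerocytes; Pde5a was at 0.12 and Pdzd2 at 0.046 in the donor library, and F2r at 0.044, Itga1 at 0.21, Tmsb10 at 0.28 and Sparc at 0.16 in the recipient library. For the counts with lower minimums more genes of few UMIs were compared; for the other values the cause was not tested. With 81 recipient Il1a aerocytes, the recipient interval lay within 1.5-fold of equality for 54.6% of genes, against 95.4% in the donor library.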

Other observations

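Of the 3346 genes compared between Il1a aerocytes and aerocytes with neither transcript, 5 had intervals on opposite sides of equality in the 2 libraries. Over all these genes, 7.44% of donor intervals lay above equality and 5.23% below, and 6.04% and 3.92% of recipient intervals. The 5 genes were picked after their values were seen, and the difference between libraries was not tested. Epas1, the hypoxia-inducible factor HIF-2 alpha, was at 1330 CPM in donor Il1a aerocytes and 1416 CPM in donor aerocytes with neither, and at 1310 and 1161 CPM in the recipient library. Hilpda, a lipid droplet protein induced by hypoxia, was at 729 and 664 CPM and at 562 and 668 CPM. Nfat5, a transcription factor of the osmotic stress response, was at 93.7 and 72.2 CPM and at 75.7 and 105 CPM. Myadm was at 267 and 217 CPM and at 210 and 274 CPM, and Cbx5, a heterochromatin protein, at 45.9 and 58.3 CPM and at 77.2 and 46.7 CPM.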
